A study of Mus musculus and Rattus norvegicus with 36 samples.

Results

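Kidneys of mice fed 0.05 μg selenium (Se)/g diet were compared with kidneys of Se-deficient mice, to ask which transcripts a marginal supply of Se, below the dietary requirement, already sets apart from deficiency. The arrays were chosen by their labelled tissue and diet, and they are 6 of the 36 in the series, 3 for each diet. All 45037 probe sets other than the 64 array controls were tested. The 3 kidney arrays of mice fed 0.2 μg Se/g, a Se-adequate diet, shared the fit, and liver arrays of the same diets were used to compare the tissues. Values are the deposited log2 expression values, so that a difference of 1 is a 2-fold difference.

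The study fed graded levels of Se to mice and rats and profiled RNA from liver and, in mice, kidney. The mice were male wild-type animals of a colony with a predominately C57 black background, weaned from Se-adequate dams. The 0.05 and the 0.2 μg Se/g group received sodium selenite at those levels, and the Se-deficient group received none. All groups ate the same torula yeast basal diet with added vitamin E and methionine for 35 days, and 3 mice per diet each gave 1 kidney array.

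Selenoproteins contain selenocysteine, an amino acid encoded by a UGA codon that is otherwise a stop signal. When Se is short, transcripts of some selenoproteins are degraded while those of others are kept, which is known as the selenoprotein hierarchy. Nrf2 is a transcription factor that is freed from its inhibitor Keap1 by oxidants and electrophiles and then binds antioxidant response elements near genes of detoxification, such as Nqo1, glutathione transferases and efflux pumps. The proximal tubule of the kidney takes up selenoprotein P through megalin and secretes glutathione peroxidase 3 into plasma.

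The kidney label was checked against marker genes. The 14 measured proximal tubule markers lay between the 93.9th and the 100th percentile of the probe sets, with Kap, an androgen-regulated protein of proximal tubule cells, at the top, and the 11 measured collecting duct markers between the 72.8th and the 97.0th. The 9 hepatocyte markers lay between the 28.3rd and the 99.7th percentile. Array medians ranged between 6.24 and 6.29 over the 9 kidney arrays. Across probe sets, which are not independent, arrays of the same diet correlated at 0.992 to 0.997 and those of different diets at 0.993 to 0.996. P-values measure the spread between these mice.

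Marginal Se set 5 probe sets apart from deficiency. Transcripts of 3 selenoproteins, Selenoh, Gpx1 and Selenow, were higher at 0.05 μg Se/g, and those of Abcc4, an efflux pump, and Gsta3, a glutathione transferase, were lower. These 5 are 0.0111% of the probe sets tested (limma, adjusted p under 0.05), with 3 higher (0.00666%) and 2 lower (0.00444%). At an unadjusted p under 0.05 there were 817 probe sets (1.81%), 459 higher (1.02%) and 358 lower (0.795%). In bulk tissue, a change in the share of a cell type and a change in RNA per cell cannot be told apart.

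**Figure D1:**
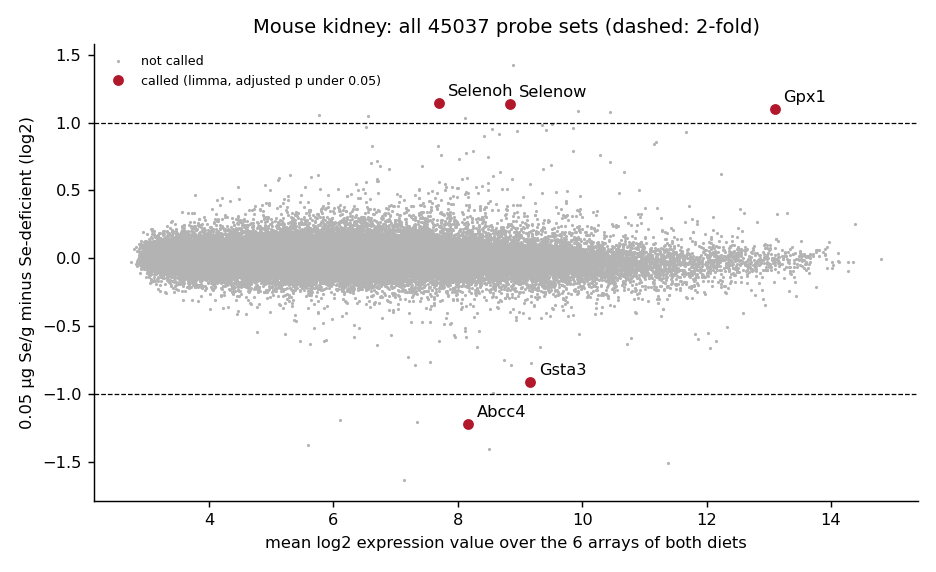
Difference between kidney at 0.05 μg Se/g and Se-deficient kidney (log2, y axis) against the mean log2 value over the 6 arrays (x axis) for all 45037 probe sets, with the 5 called probe sets in red and dashed lines at 2-fold. Most probe sets lie close to 0, and 97.6% lie within 0.25 of it.

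Selenoh is a nuclear selenoprotein of the thioredoxin fold family. Its log2 value was 8.25, 8.25 and 8.32 in the 3 kidneys at 0.05 μg Se/g, against 7.31, 7.10 and 6.99 in the 3 Se-deficient kidneys. The groups did not overlap, and the values at 0.05 μg Se/g were close together. The difference was 1.14 ± 0.0850 (SE, 2.21-fold, limma adjusted p = 0.00394), with a 95% interval of 0.95 to 1.33.

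Gpx1, the cytosolic glutathione peroxidase, is among the most abundant transcripts of the kidney and lies at the 99.8th percentile of the probe sets. It measured 13.74, 13.59 and 13.60 at 0.05 μg Se/g, against 12.77, 12.48 and 12.38 in Se-deficient kidney. All arrays at 0.05 μg Se/g were higher than all Se-deficient arrays. The difference was 1.10 ± 0.101 (SE, 2.14-fold, limma adjusted p = 0.0143).

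Selenow, a small selenoprotein first known from muscle, measured 9.48, 9.30 and 9.45 at 0.05 μg Se/g, against 8.20, 8.31 and 8.31 in Se deficiency. Again the groups did not overlap, with a difference of 1.14 ± 0.121 (SE, 2.20-fold, limma adjusted p = 0.0235). The less bright second probe set of Selenow gave a smaller difference of 0.31 that was not called.

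Abcc4, which pumps organic anions and conjugates out of cells, was lower with marginal Se. Its values were 7.56, 7.64 and 7.47 at 0.05 μg Se/g, against 8.99, 8.54 and 8.80 in Se-deficient kidney. No array at 0.05 μg Se/g reached the lowest Se-deficient one. The difference was -1.22 ± 0.117 (SE, 2.33-fold lower, limma adjusted p = 0.0143).

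Gsta3, an alpha-class enzyme that conjugates glutathione to electrophiles, measured 8.81, 8.55 and 8.74 at 0.05 μg Se/g, against 9.49, 9.74 and 9.61 in Se-deficient kidney. The groups did not overlap, and the difference was -0.91 ± 0.0946 (SE, 1.88-fold lower, limma adjusted p = 0.0224). A second probe set for Gsta3 also had no overlap, with a difference of -0.73 (limma adjusted p = 0.466). Alpha-class transferases are similar in sequence, so a probe set may also read a related transcript.

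Nqo1, a quinone reductase and a much used readout of Nrf2, was next in the order of p. It measured 8.82, 8.75 and 8.78 at 0.05 μg Se/g, against 9.32, 9.67 and 9.68 in Se deficiency. The groups did not overlap, but the difference of -0.77 ± 0.102 (SE) was not called (limma adjusted p = 0.137). With array weights it was -0.84 and was called (limma adjusted p = 0.00983), and without Se-deficient replicate 1 it was -0.89 and was called (limma adjusted p = 0.0212).

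**Figure D2:**
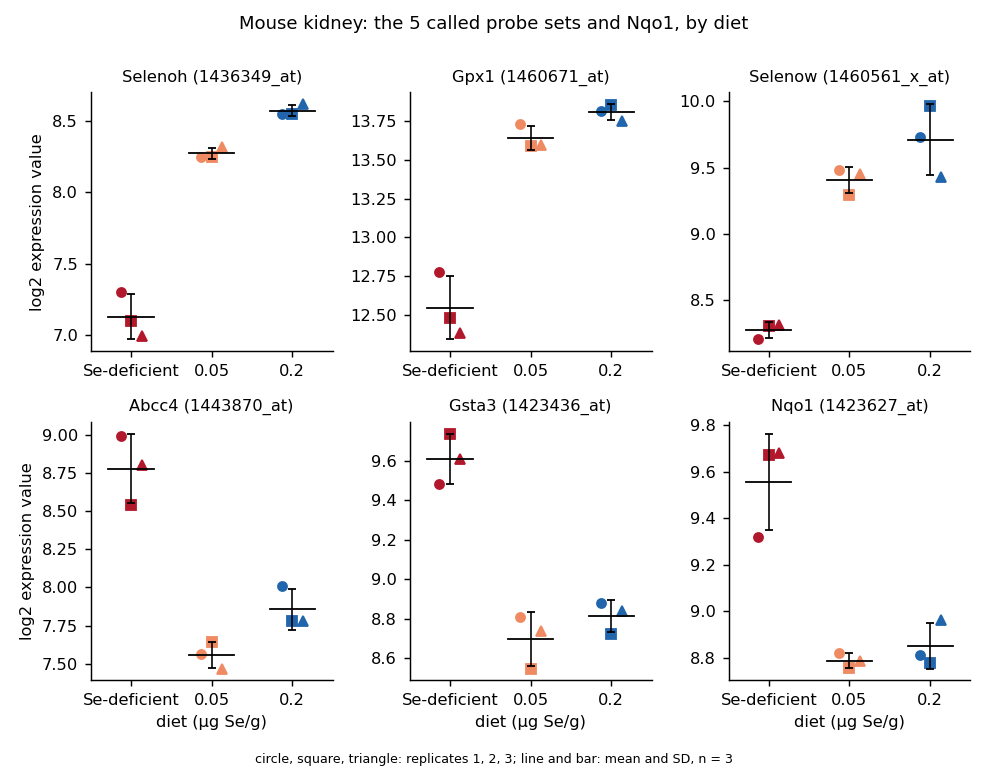
Log2 expression value (y axis, scaled to each panel) by diet (x axis) of the 5 called probe sets and Nqo1 in mouse kidney, with 1 point per array and the mean and SD of 3 arrays. At 0.05 μg Se/g the upper 3 selenoproteins lie above, and Abcc4, Gsta3 and Nqo1 below, every Se-deficient array.

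Most calls were lost when 1 array was left out. Without 1 array, the count of called probe sets was 5, 2 and 1 without Se-deficient replicate 1, 2 and 3, and 1, 1 and 0 without replicate 1, 2 and 3 at 0.05 μg Se/g. Over these 6 fits the limma adjusted p ran from 0.00215 to 0.0513 for Selenoh, which was called in 5 of them, from 0.00259 to 0.122 for Gpx1, from 0.0231 to 0.173 for Abcc4, from 0.0387 to 0.199 for Gsta3 and from 0.107 to 0.207 for Selenow. The differences themselves moved little, and stayed between 1.02 and 1.21 for Gpx1 and between -1.34 and -1.12 for Abcc4. With only the 6 arrays of both diets in the fit, 1 probe set, Selenow, was called. With the replicate number as a block, Gsta3 and Selenow were not called.

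Among the other selenoproteins the differences were smaller. The array measured 23 of the 24 rodent selenoproteins, and 3 of the 23 were called higher, against 0.0165% of all 18193 genes. The arrays at 0.05 μg Se/g lay above all Se-deficient arrays for 8 of the 23 (1.81% of all genes), and below them for 0. The median difference over the 23 was 0.15, against -0.0019 over all genes, and 18 of the 23 had the higher mean at 0.05 μg Se/g. Their median level was at the 89.8th percentile of the probe sets.

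Selenom, a selenoprotein of the endoplasmic reticulum, had the next largest difference. It measured 8.41, 7.86 and 8.0 at 0.05 μg Se/g, against 7.40, 7.38 and 6.99 in Se deficiency. The groups did not overlap, but the arrays at 0.05 μg Se/g were spread and the difference of 0.83 ± 0.221 (SE) was not called (limma adjusted p of 1).

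Gpx3, the plasma glutathione peroxidase for which the kidney is the main source, measured 14.63, 14.44 and 14.46 at 0.05 μg Se/g, against 14.33, 14.27 and 14.17 in Se-deficient kidney. The groups did not overlap, and the difference was 0.25 ± 0.0831 (SE), with an unadjusted limma p of 0.0122. These values lie near the top of the scale, since the highest value on any array of these diets was 14.84.

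Selenok and Selenof, both of the endoplasmic reticulum, had differences of 0.25 and 0.26 without overlap, and Txnrd2, the mitochondrial thioredoxin reductase, had one of 0.15 without overlap. Their limma adjusted p was 1. Dio1, the deiodinase that makes active thyroid hormone in kidney and liver, had 7.88, 7.29 and 7.22 at 0.05 μg Se/g, against 7.18, 7.29 and 7.02 in Se deficiency. Here replicate 1 at 0.05 μg Se/g stood above the others and the groups overlapped.

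Several selenoproteins differed little. Gpx4, which reduces lipid peroxides in membranes, measured 13.17, 13.08 and 12.99 at 0.05 μg Se/g, against 13.16, 13.19 and 12.90 in Se-deficient kidney. The groups overlapped, and the 95% interval of the difference ran from -0.28 to 0.27. Selenop, the plasma carrier of Se, had a difference of 0.12, Txnrd1, the cytosolic thioredoxin reductase, one of 0.19 and Sephs2, which makes the Se donor for selenocysteine, one of -0.11. None of the 3 was called, and in each the groups overlapped. The dimmer probe sets of Txnrd1 had differences of 0.33 with overlap and 0.28 without.

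**Figure D3:**
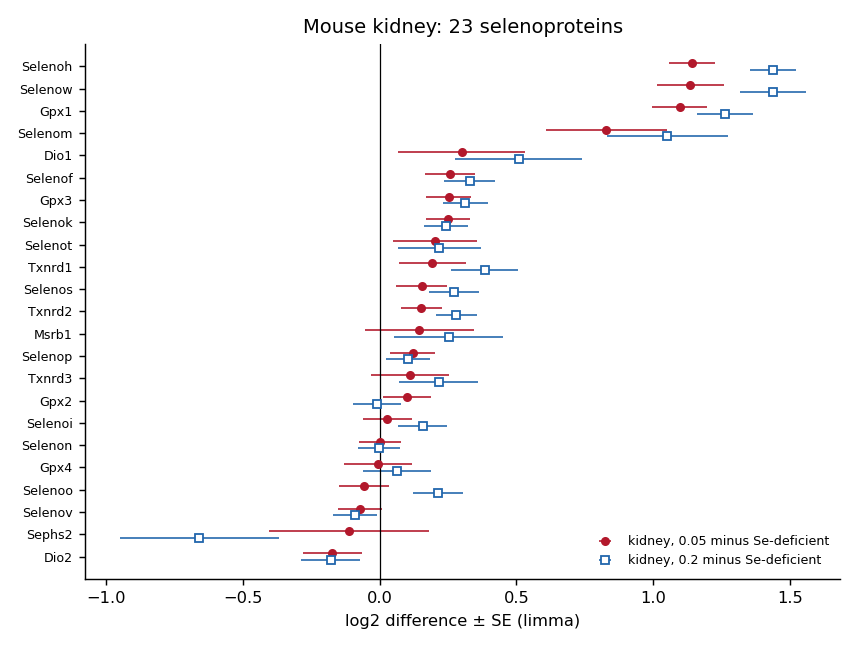
Log2 difference ± SE (limma, x axis) of 23 selenoproteins (y axis) in mouse kidney, for 0.05 μg Se/g minus Se-deficient (red circles) and for 0.2 μg Se/g minus Se-deficient (blue squares), which share the Se-deficient arrays. Selenoh, Selenow and Gpx1 lie above 1 in both, and Gpx4, Selenon and Dio2 are near or below 0 in both.

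The genes that make selenoproteins and carry Se were not called. Of 12 measured genes for selenocysteine synthesis and insertion and of 9 for Se transport and recycling, 0 were called, and the groups overlapped for all of them. Over all genes, 0.0165% were called higher and 0.0110% lower, and 1.81% were higher and 2.50% lower without overlap. Counts of 0 in lists this short are near those shares. Median differences were -0.02 and -0.06. Lrp2, the megalin receptor that takes up selenoprotein P in the proximal tubule, had a difference of -0.29 ± 0.128 (SE) with overlap.

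Both called lower genes are known targets of Nrf2. Of 41 measured genes from a list of textbook Nrf2 targets, 2 were called lower, Abcc4 and Gsta3, against 0.0110% of all genes. The list was chosen with earlier results of these data known. The study already lists Abcc4 and Gsta3 as Nrf2 targets nearly significantly raised in the same Se-deficient kidneys. It lists the Nrf2 target Nqo1 beside them, with an adjusted p above its range for near significance. By array and qRT-PCR, it also reports that genes raised in deficiency were back at adequate levels in mice fed 0.05 μg Se/g. The counts are therefore not independent of the study. For 16 of the 41 every array at 0.05 μg Se/g lay below every Se-deficient array, against 2.50% of all genes, and for 0 every array lay above. At an unadjusted limma p under 0.05 there were 16 lower (0.879% of all genes) and 0 higher (0.671%). The mean was lower at 0.05 μg Se/g for 37 of the 41, with a median difference of -0.21.

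Enzymes that conjugate glutathione made up part of this group. Gstm1 measured 11.84, 11.96 and 11.74 at 0.05 μg Se/g, against 12.53, 12.43 and 12.42 in Se-deficient kidney, without overlap. Its 4 probe sets gave differences of -0.44, -0.56, -0.61 and -0.66, each without overlap and none called (limma adjusted p of 1). Gstp1 measured 12.08, 12.08 and 12.07 at 0.05 μg Se/g, against 12.65, 12.56 and 12.53 in Se deficiency, a difference of -0.51 ± 0.105 (SE) without overlap that was not called.

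Gsta2 measured 11.92, 11.53 and 11.79 at 0.05 μg Se/g, against 12.61, 11.97 and 12.31 in Se-deficient kidney. The groups were separate by a small margin, with a difference of -0.55 ± 0.169 (SE) that was not called. Of 21 measured glutathione transferases, 1 was called lower (0.0110% of all genes), 5 were lower without overlap (2.50%) and 0 were higher without overlap (1.81%). Gsta4 and Gstm3 overlapped between the diets, with differences of -0.10 and -0.08, while a dimmer probe set of Gstm3 was lower without overlap by a difference of -0.23.

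Cbr3, Pgd and Ugdh, carbonyl and sugar metabolism genes of the list, were also lower without being called. Cbr3, a carbonyl reductase, measured 6.26, 5.90 and 5.95 at 0.05 μg Se/g, against 6.94, 6.41 and 6.50 in Se-deficient kidney. The groups did not overlap, and the difference of -0.58 ± 0.142 (SE) was not called. Pgd, which makes NADPH in the pentose phosphate pathway, had a difference of -0.36 and Ugdh, which makes UDP-glucuronate, one of -0.30, both without overlap and neither called.

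The largest difference of the list was that of Ces1g, a carboxylesterase, at -1.64 without overlap and not called. It is described below with the probe sets beyond 2-fold. The other classical targets in this paragraph had differences of at most 0.29 in size. Cbr1 had a difference of -0.12, Gclc, the catalytic subunit of glutathione synthesis, one of -0.14, and Gclm, its modifier subunit, one of 0.13, all with overlap. Hmox1, the inducible heme oxygenase, was lower without overlap by a difference of -0.21, and Srxn1, sulfiredoxin, by one of -0.29. Neither was called. Nfe2l2, the gene of Nrf2 itself, had 9.99, 10.04 and 10.10 at 0.05 μg Se/g, against 9.80, 10.13 and 10.01 in Se deficiency, and the groups overlapped.

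**Figure D4:**
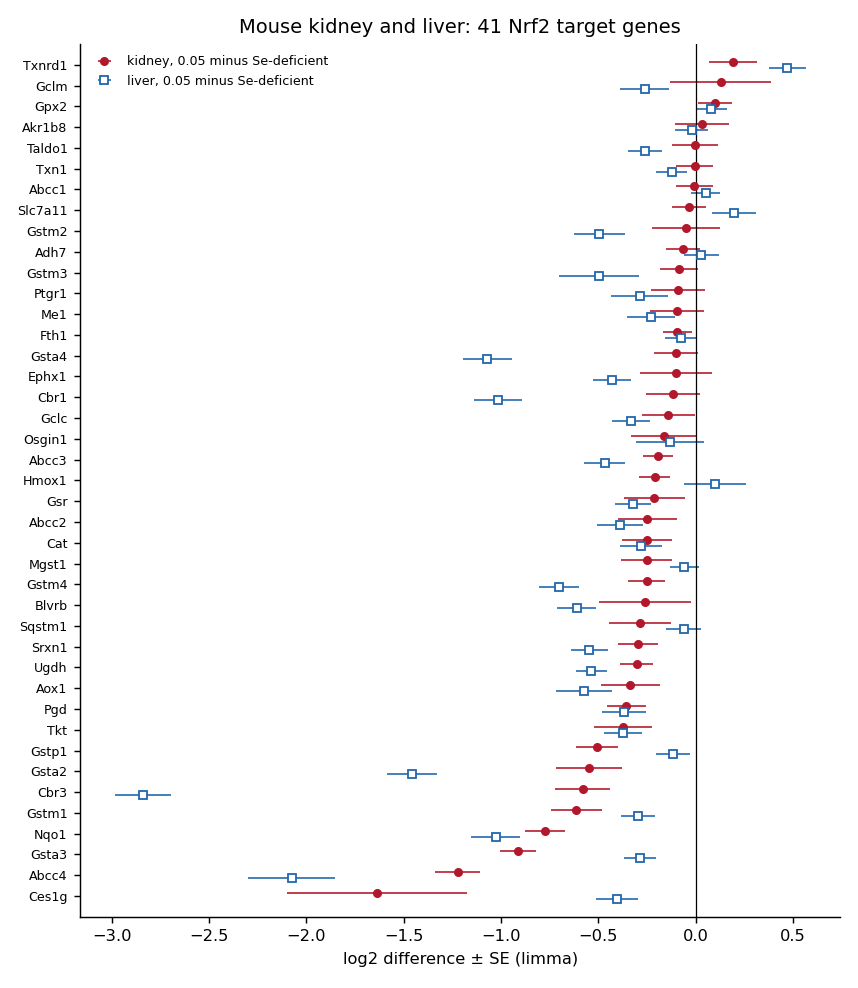
Log2 difference ± SE (limma, x axis) between 0.05 μg Se/g and Se deficiency of 41 Nrf2 target genes (y axis) in mouse kidney (red circles) and mouse liver (blue squares), each tissue in its own fit. In kidney 37 lie left of 0, and Cbr3 has the widest gap between the tissues.

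The promoters of the 2 called targets are shown because both hold the core of an antioxidant response element, written TGACNNNGC, on 1 of the strands. The sequences are the 250 bases before the transcript start, from RefSeq on GRCm38.p6, 5′ to 3′ on the strand of the gene, with the match in capitals. Abcc4 has 2 listed starts on chromosome 14, on the minus strand, at chr14:118706220-118706469 and chr14:118676932-118677181, and Gsta3 has 1 on chromosome 1, on the plus strand, at chr1:21240335-21240584.
Gsta3: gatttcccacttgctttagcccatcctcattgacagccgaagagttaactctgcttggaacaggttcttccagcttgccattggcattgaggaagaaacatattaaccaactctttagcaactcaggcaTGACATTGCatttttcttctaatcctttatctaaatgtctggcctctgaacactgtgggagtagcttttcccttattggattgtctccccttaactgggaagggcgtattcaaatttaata
Abcc4, first start: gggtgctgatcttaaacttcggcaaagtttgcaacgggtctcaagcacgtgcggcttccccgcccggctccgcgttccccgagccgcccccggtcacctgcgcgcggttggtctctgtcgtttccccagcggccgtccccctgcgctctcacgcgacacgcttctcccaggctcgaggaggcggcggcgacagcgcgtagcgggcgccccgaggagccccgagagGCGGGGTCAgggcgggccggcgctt
Abcc4, second start: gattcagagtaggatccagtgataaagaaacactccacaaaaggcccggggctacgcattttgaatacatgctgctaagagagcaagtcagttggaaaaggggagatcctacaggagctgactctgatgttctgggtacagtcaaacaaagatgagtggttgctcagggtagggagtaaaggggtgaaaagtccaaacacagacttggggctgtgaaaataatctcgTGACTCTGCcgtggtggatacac
The core occurs in 3338 of 32851 listed promoters of this length (10.2%) and for 3112 of 27025 genes (11.5%). In Gsta3 its first base lies 121 bases before the start, and in Abcc4 it lies 25 and 23 bases before. Ugdh also holds it, and so do Selenok and 1 of 3 listed starts of Txnrd1, both with a higher mean at 0.05 μg Se/g. The letters are not in the same window of Nqo1, Gstm1, Gstp1, Gsta2, Cbr1, Cbr3, Ces1g and Pgd, nor of Selenoh, Gpx1, Selenow and Selenom. A match is a description of the sequence, and binding was not measured.

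Kidneys at 0.2 μg Se/g were also set beside those at 0.05 μg Se/g. Between 0.2 and 0.05 μg Se/g limma called 0 of 45037 probe sets, with 1311 at an unadjusted p under 0.05 (2.91%), and it called 0 under each alternative run. Between 0.2 μg Se/g and Se deficiency it called 3 (0.00666%), which were Selenoh, Gpx1 and Selenow, all higher at 0.2 μg Se/g. The comparisons share arrays, so their values are given side by side. Selenoh was 0.30 higher at 0.2 than at 0.05 μg Se/g (95% interval 0.11 to 0.49), with 8.55, 8.55 and 8.62 at 0.2 μg Se/g and no overlap. Selenow was 0.30 higher (0.03 to 0.57) with overlap, and Gpx1 was 0.17 higher (-0.06 to 0.39) without overlap. None of these was called.

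Among the lower genes, Gsta3 measured 8.88, 8.72 and 8.84 at 0.2 μg Se/g and Nqo1 measured 8.81, 8.78 and 8.96, and both overlapped with their values at 0.05 μg Se/g. Abcc4 measured 8.01, 7.78 and 7.78 at 0.2 μg Se/g, all above the arrays at 0.05 μg Se/g and below the Se-deficient ones. It was 0.30 higher at 0.2 than at 0.05 μg Se/g (95% interval 0.04 to 0.56, limma adjusted p of 1). Cbr3 measured 6.45, 6.45 and 6.31 at 0.2 μg Se/g, all above the arrays at 0.05 μg Se/g but overlapping with the Se-deficient ones, and was 0.37 higher at 0.2 than at 0.05 μg Se/g (limma adjusted p of 1). Of the 41 Nrf2 targets, 2 were higher at 0.2 than at 0.05 μg Se/g without overlap (3.90% of all genes) and 2 were lower (2.91%). Of the 23 selenoproteins 16 had the higher mean at 0.2 μg Se/g. Among the 23, 4 were higher without overlap, Selenoh, Gpx1, Txnrd2 and Selenoo, and Gpx2 was lower.

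In liver the same comparison called 17 of 45037 probe sets (0.0377%), 7 higher (0.0155%) and 10 lower (0.0222%). Selenoh, Gpx1, Selenow and Abcc4 were called in both tissues. By the methods, 3 mice per diet gave both tissues, so the tissues share animals, and whether equal replicate numbers mark 1 animal is not stated there. In the deviations from the diet means across probe sets, kidney and liver arrays of the same number correlated at 0.212, 0.249 and 0.212 at 0.05 μg Se/g, against -0.114, 0.0313 and -0.0631 in Se deficiency. Arrays of different numbers were not compared between the tissues, so these values cannot tell whether a number marks 1 animal. In liver the differences were 1.39 for Selenoh, 1.09 for Gpx1, 1.47 for Selenow and -2.07 for Abcc4. Gsta3, called in kidney, had a difference of -0.29 in liver that was not called, and the test of the difference between the tissues did not pass (kidney minus liver -0.63, limma adjusted p = 0.891).

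One probe set passed the test of the difference between the tissues (0.00222%). Cbr3 measured 6.36, 6.54 and 6.71 in liver at 0.05 μg Se/g, against 9.45, 9.06 and 9.62 in Se-deficient liver, a difference of -2.84, while in kidney it was -0.58. The response in kidney minus that in liver was 2.26 ± 0.216 (SE, limma adjusted p = 0.000284). Gsta4 (0.97) and Selenok (-0.66) came next in the order of p and did not pass (limma adjusted p = 0.567 for both). The tissues were normalized separately, so only differences within a tissue were compared. The test had no term for the animals that the tissues share.

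Beyond 2-fold there were 17 probe sets, 10 above (0.0222%) and 7 below (0.0155%), of which 4 were also called. Most of the other 13 varied strongly between arrays of 1 diet. Iigp1, an interferon-induced GTPase, measured 8.68, 8.07 and 12.82 at 0.05 μg Se/g, against 7.73, 9.84 and 8.31 in Se deficiency. Gbp6, another such GTPase, measured 6.18, 5.18 and 9.88 at 0.05 μg Se/g, against 5.06, 7.12 and 5.92 in Se deficiency. Replicate 3 at 0.05 μg Se/g was high for both, and without it the differences of Iigp1 and Gbp6 were -0.25 and -0.35.

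The same array was high for other immune genes. Pigr, the receptor that carries immunoglobulin A across epithelia, measured 11.02, 9.39 and 12.53 at 0.05 μg Se/g, against 9.03, 10.86 and 9.82 in Se deficiency, with overlap. Of 16 measured interferon response genes 0 were called, and the groups overlapped for all 16. Over all genes, 0.0165% were called higher and 0.0110% lower, and 1.81% were higher and 2.50% lower without overlap. Their median difference was 0.19 and 15 had the higher mean at 0.05 μg Se/g. For 12 macrophage and leukocyte markers, none of them called, the summed level (log2 of the sum of linear values) ranged over 12.32-13.98 at 0.05 μg Se/g, against 12.10-12.91 in Se-deficient kidney. The part of these cells in the differences was not tested.

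**Figure D5:**
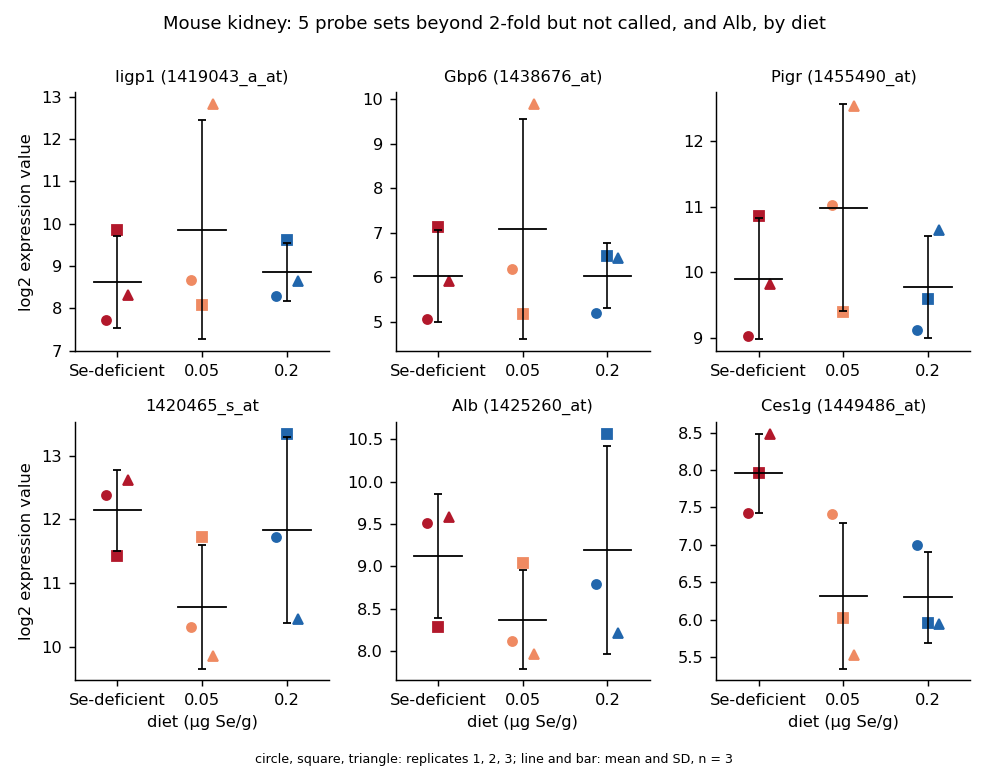
Log2 expression value (y axis, scaled to each panel) by diet (x axis) of 5 probe sets beyond 2-fold that were not called and of Alb in mouse kidney, with 1 point per array and the mean and SD of 3 arrays. Iigp1, Gbp6 and Pigr peak on replicate 3 at 0.05 μg Se/g, and Alb and the probe set with no single symbol rank the arrays of each diet alike.

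Liver genes varied between arrays too. Alb, the gene of serum albumin, measured 8.12, 9.04 and 7.96 at 0.05 μg Se/g, against 9.51, 8.28 and 9.58 in Se-deficient kidney. A probe set with no single gene symbol and a difference of -1.51 measured 10.31, 11.72 and 9.86 at 0.05 μg Se/g, against 12.39, 11.42 and 12.62 in Se deficiency. Both were highest on replicate 2 at 0.05 μg Se/g and lowest on replicate 2 in Se deficiency, and the groups overlapped. For 9 hepatocyte markers the summed level ranged over 12.91-13.65 at 0.05 μg Se/g, against 12.97-13.34 in Se-deficient kidney, and the part of such RNA in these differences was not tested.

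Ces1g, a carboxylesterase and the lowest of the 17, measured 7.41, 6.02 and 5.53 at 0.05 μg Se/g, against 7.43, 7.95 and 8.48 in Se-deficient kidney. Replicate 1 of both diets had nearly the same value, so that the groups were only just separate, and the difference of -1.64 ± 0.462 (SE) was not called (limma adjusted p of 1). Pdgfd, a growth factor of mesenchymal cells, measured 6.68, 6.20 and 5.99 at 0.05 μg Se/g, against 4.29, 5.74 and 5.68 in Se deficiency. The groups did not overlap, Se-deficient replicate 1 was low, and the difference of 1.05 was not called. A dimmer probe set of Pdgfd measured 5.67, 5.46 and 5.11 at 0.05 μg Se/g, against 4.81, 4.77 and 4.89 in Se deficiency. Its difference of 0.59, also without overlap, was not called.

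The remaining probe sets with the smallest p had modest differences and a limma adjusted p of 0.761 or above. Car3, a carbonic anhydrase, measured 7.72, 8.01 and 7.84 at 0.05 μg Se/g, against 8.44, 8.30 and 8.37 in Se-deficient kidney, a difference of -0.52 without overlap. Chrnb1, an acetylcholine receptor subunit, measured 6.69, 6.66 and 6.62 at 0.05 μg Se/g, against 6.41, 6.41 and 6.40 in Se deficiency, a difference of 0.25. The groups were separate for both genes and tight for Chrnb1, but neither gene was called. For Rora, a nuclear receptor, Mycbp2, a ubiquitin ligase, and Klhl32, 1 dimmer probe set each had a difference of 0.40, 0.33 and 0.35, while their brightest probe sets had 0.02, -0.23 and 0.09. Mpv17l, Cfap300 and Negr1 differed by -0.39, -0.37 and -0.31 without overlap.

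No gene of several other pathways was called, against 0.0165% of all genes called higher and 0.0110% called lower. There was none among 15 heat shock genes (median difference -0.08), 20 genes of the unfolded protein and amino acid response (0.0003), 29 respiratory chain subunits (-0.0028), 24 cell cycle genes (0.02), 22 collagens and matrix genes (-0.02) or 15 kidney injury genes (-0.0059). Of the 15 kidney injury genes, 3 were higher without overlap (1.81% of all genes) and 1 was lower (2.50%). Vcam1, an adhesion molecule, measured 7.37, 7.49 and 7.40 at 0.05 μg Se/g, against 7.15, 7.14 and 7.31 in Se deficiency. Its difference of 0.22 had an unadjusted limma p of 0.0129 (adjusted p of 1), and Timp2, Igfbp7 and Krt8 had differences of 0.18, 0.06 and -0.11. Hspb1, a small heat shock protein, measured 9.11, 9.65 and 9.11 at 0.05 μg Se/g, against 9.51, 9.26 and 9.08 in Se deficiency, with overlap. For the 14 proximal tubule markers the summed level ranged over 16.38-16.53 at 0.05 μg Se/g, against 16.53-16.56 in Se-deficient kidney. It was slightly lower and only just without overlap. Of the 14, 12 had the lower mean at 0.05 μg Se/g and 2 the higher, with a median difference of -0.08. Lrp2 and Slc22a12 were lower at an unadjusted limma p under 0.05, which is 2 of the 14 against 0.879% of all genes. The part of this shift in the lower genes was not tested.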

How the data were processed

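Kidney RNA of mice on 3 diets was hybridised to Affymetrix mouse genome arrays after purification of mRNA, with 1 array per mouse. The values used are the log2 expression values that the authors deposited for the mouse arrays. The submitters' processing notes name GCRMA, whose version is not given in the sources used here, while the study's methods name RMA, so the summarization method stays unknown. No scanner files or detection calls were used, and the number of arrays limits the precision. The methods normalized each tissue separately. Of the 45037 probe sets left after 64 controls, 34945 had 1 gene symbol, 932 several and 9160 none in the platform annotation, and 34741 matched RefSeq by Entrez ID.

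The 9 kidney arrays were fitted together with limma 3.58.1 in R 4.3.3, with 1 coefficient per diet, and p-values were adjusted by Benjamini-Hochberg over all probe sets at 0.05. Kidney and liver responses were compared in a fit of 18 arrays, which treated the arrays as independent although the tissues share animals. With 3 arrays against 3, an exact permutation test cannot go below 0.10. The probe set with the highest mean stood for a gene in lists. Tables and plots were made in Python 3.11.15 with pandas 2.3.3 and matplotlib 3.10.9, and the scripts were tested on simulated data.

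Named genes were all selenoproteins, genes the study names for Se deficiency, called probe sets, the 15 higher and 15 lower probe sets with the smallest p, those beyond 2-fold and up to 4 members of each list. Others that the lists hold were named for their role after their values were seen. The members and lists were chosen with earlier results of these data known. Alternatives were other arrays in the fit, trended and robust variances, array weights, a filter on low signal, quantile normalization, the replicate number as a block, and omission of each array in turn.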

Additional observations from a re-analysis of the deposited data

Results flagged for a closer look

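Cbr3, a carbonyl reductase, responded differently to marginal Se in the tissues. Its difference between 0.05 μg Se/g and Se deficiency was -0.58 in kidney and -2.84 in liver, and the kidney response minus the liver response was 2.26 (limma adjusted p = 0.000284 over 45037 probe sets). It was lower at 0.05 μg Se/g without overlap in both tissues. The difference between the tissues was called in all 18 alternatives.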

How the results depend on the processing

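All values compare 0.05 μg Se/g with Se-deficient kidney unless stated. The 5 called probe sets became 1 with only the arrays of both diets in the fit and 3 with the replicate block, where Gsta3 and Selenow were lost (limma adjusted p = 0.0763 for both), and 0 to 5 when 1 array was left out (0 without replicate 3 at 0.05 μg Se/g, where 759 probe sets had an unadjusted limma p under 0.05). The labels do not say that a number marks a shared batch. Same-numbered arrays correlated in their deviations at 0.181, -0.136 and 0.0948 between 0.05 μg Se/g and Se deficiency, so pairing was not taken as given. Arrays of different numbers correlated at -0.225 to 0.171. The hybridisation control bioB did follow the number, as described below. With the arrays at 0.2 μg Se/g the same-numbered values were 0.384, 0.0258 and 0.167 against 0.05 μg Se/g and 0.107, 0.0903 and 0.276 against Se deficiency. Different numbers gave -0.329 to 0.221 and -0.206 to 0.0535 there. Probe sets beyond 2-fold numbered 17, and 33 with array weights and 11 to 50 when 1 array was left out. Between 0.2 μg Se/g and Se deficiency the 3 calls became 1 with only both diets, 5 with all 18 arrays and 6 with array weights. In liver the 17 calls became 49 with the replicate block and 8 to 10 when 1 array was left out. The cause of these shifts was not tested.

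Single values near 0 changed sign. With array weights, 1 probe set of Txnrd2 was at 0.0276 and Gpx4 at 0.0248, and with quantile normalization Gpx4 was at 0.000204 and Selenon at -0.0109. When 1 array was left out, the differences ranged from -0.25 to 2.12 and from -0.43 to 1.89 for the probe sets of Iigp1, from -0.35 to 2.00 for Gbp6, from -0.23 to 0.0027 for Cbr1, from -0.0042 to 0.30 for Msrb1, from -0.0472 to 0.0748 for Selenoi, from -0.0732 to 0.0525 for that probe set of Txnrd2, from -0.0979 to 0.0484 for Gpx4, from -0.18 to 0.12 for Hspb1 and from -0.0344 to 0.0420 for Selenon. Of the alternatives for named probe sets, 1007 kept direction and side of the threshold, 28 lost a call, 2 gained one and 22 changed sign. Most of the 1007 belong to probe sets that were not called in the main fit. All lost calls fell on the 5 called probe sets, with 13 alternatives each. They were 7 for Gsta3, 7 for Selenow, 6 for Gpx1, 6 for Abcc4 and 2 for Selenoh.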

Other observations

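The hybridisation control bioB, spiked into each sample, followed the replicate number and not the diet in kidney. It was 8.53, 8.95 and 9.21 on replicates 1, 2 and 3 at 0.05 μg Se/g, against 8.51, 8.96 and 9.22 on those of Se-deficient kidney. At 0.2 μg Se/g it was 8.54, 8.98 and 9.18 on replicates 1, 2 and 3. The 3′ minus 5′ difference of the Gapdh probe sets ranged over 0.186-0.453 at 0.05 μg Se/g, against 0.333-0.583 in Se deficiency, and the groups overlapped.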
